A study of Mus musculus with 6 samples.

Results

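The giant, M-band and myosin-binding proteins of the sarcomere were followed at the RNA level in mouse gastrocnemius, the large calf muscle, with and without Tmem182. The group consists of 9 genes picked by symbol, namely Ttn, Neb, Obsl1, Myom1, Myom2, Myom3, Mybpc1, Mybpc2 and Mybph, and all 9 were found among the 19458 genes listed for every library and passed the filter on low counts. The data were bulk RNA-seq libraries from 3 Tmem182-/- (KO) and 3 wild-type (WT) samples of skeletal muscle. Both groups were C57BL/6 mice aged 9 weeks with no treatment recorded, and the labels do not describe how the knockout was made. The labels do not say whether each library came from its own mouse, so p-values cover the spread between libraries, part of which could be technical. The labels' extraction protocol describes muscle cell cultures, and the source labels of KO libraries 2 and 3 carry other Tmem gene numbers, while tissue and genotype labels are uniform.

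Titin, encoded by Ttn, spans from the Z-disc to the M-band and acts as the molecular spring and ruler of the thick filament, and nebulin, encoded by Neb, runs along the thin filament and sets its length. Myomesins cross-link myosin tails and titin ends at the M-band, where obscurin-like 1 also binds titin and myomesin. Myosin-binding protein C (MyBP-C) forms stripes on the thick filament and modulates cross-bridges; Mybpc1 encodes its slow form and Mybpc2 its fast form. Mybph encodes the smaller MyBP-H, which sits in the same zone of fast skeletal fibres.

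Depth ranged from 16212341 to 17986755 expected counts in KO libraries and from 17617775 to 18672630 in WT libraries. Tmem182 was at 6.23, 4.30 and 2.17 FPKM (fragments scaled to transcript length and to library depth) in KO libraries 1, 2 and 3, against 147.48, 121.39 and 120.97 FPKM in WT libraries 1, 2 and 3, so every library matched its genotype label. Skeletal muscle markers (Acta1, Ckm, Myh4, Tnnt3, Ryr1, Cacna1s) summed to between 62486 and 83892 FPKM in KO libraries and between 76780 and 87866 FPKM in WT libraries, and 4 heart markers to at most 1.40 FPKM in any library. KO library 1 stood apart: its 10 most abundant genes held 22.0% of its counts, against 28.2% to 31.9% in the other 5 libraries, and its 11 fast fibre genes summed to 71897 FPKM, against 97741 to 111985 FPKM in the others. The 11 slow fibre genes summed to 2913, 1938 and 129.3 FPKM in the KO libraries and 890.3, 95.7 and 720.8 FPKM in the WT libraries, so that the level of slow fibre genes differed between libraries within each genotype. In bulk muscle, fewer fibres of a type and less RNA per fibre cannot be told apart.

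The 9 genes together held 3.58%, 3.98% and 4.23% of all counts in KO libraries 1, 2 and 3 and 3.72%, 3.26% and 3.90% in WT libraries 1, 2 and 3. Ttn alone held 1.68%, 1.87% and 1.96% of counts in the KO libraries and 1.67%, 1.42% and 1.76% in the WT libraries, which placed it between rank 6 and rank 11 of all genes by counts. On the per-length FPKM scale the order was different. Mybpc2 led in all 6 libraries, with 1430 ± 436 FPKM in KO and 1731 ± 169 FPKM in WT muscle (SD, n = 3 each). In KO libraries Myom1, Neb, Mybpc1 and Myom2 followed at means of 452.3, 419.3, 369.9 and 362.0 FPKM with overlapping ranges between neighbours, then Ttn at 209.3, Mybph at 91.4, Myom3 at 21.3 and Obsl1 at 9.73 FPKM. The place of Mybpc1 in this order came from KO library 1, where it had rank 2. It had rank 6 in KO libraries 2 and 3, below Ttn at rank 5. In WT libraries Myom1 (424.5 FPKM) lay above Myom2 (375.5 FPKM) without overlap, and Neb, Mybph, Mybpc1 and Ttn followed at 356.5, 257.7, 204.9 and 185.7 FPKM with overlapping ranges, ahead of Obsl1 at 12.03 and Myom3 at 8.46 FPKM. Mybph was the seventh of the 9 in each KO library and the fifth in each WT library.

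**Figure D1:**
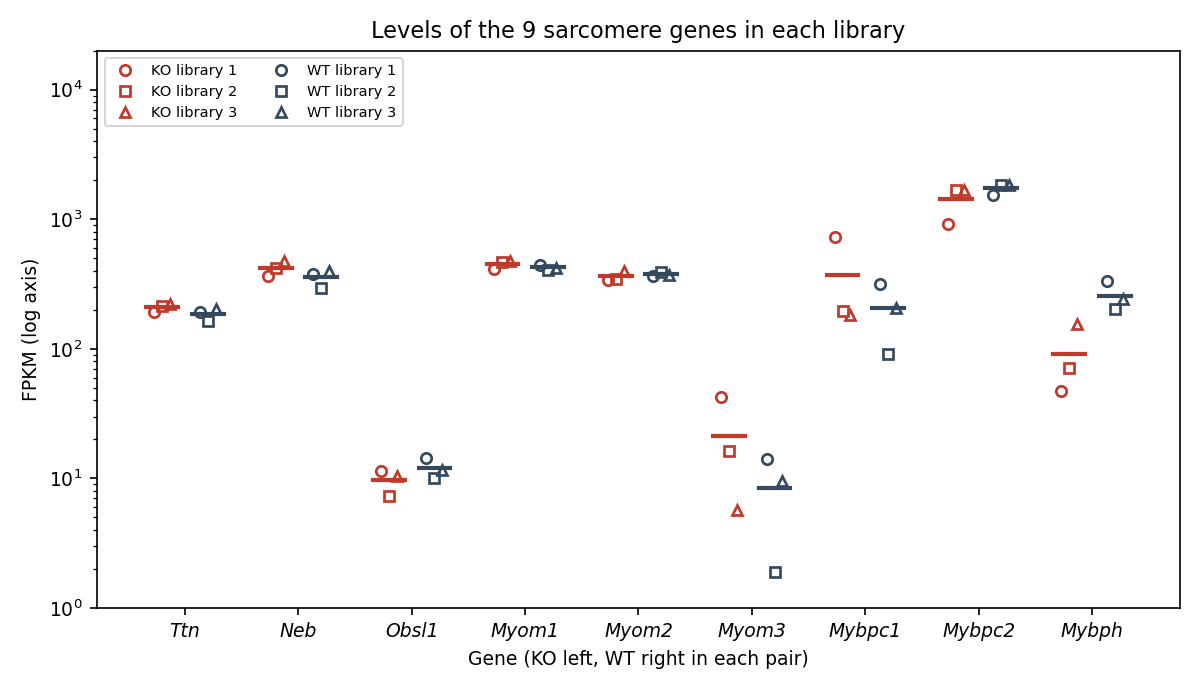
FPKM (log axis) of each of the 9 genes in KO libraries (left of each pair) and WT libraries (right), with 1 symbol per library and a bar at the group mean. Mybph is the gene whose KO values (47.31 to 155.96 FPKM) all lie below its WT values (201.42 to 331.54 FPKM), while Myom3 and Mybpc1 spread widely within both groups.

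Among the 9 genes, Mybph had the log2 fold change farthest from 0. All 3 KO libraries lay below all 3 WT libraries, although the difference did not pass the test across all genes. Mybph was at 47.31, 70.81 and 155.96 FPKM in KO libraries 1, 2 and 3, against 331.54, 201.42 and 240.26 FPKM in WT libraries 1, 2 and 3. The means were 91.4 ± 57.2 FPKM in KO and 257.7 ± 66.8 FPKM in WT muscle (SD, n = 3 each). This gave a log2 fold change of -1.49 (SE 0.47; 95% interval from -2.58 to -0.40), with an unadjusted p of 0.0138 and an adjusted p of 0.994 over 12774 genes by the edgeR quasi-likelihood test. On log2 CPM, counts scaled to library depth, a two-sided exact permutation test gave p = 0.1, its lower limit with 3 libraries per group. Groups without overlap were found for 9.18% of all genes tested, 4.51% with KO lower, and for 1 of the 9 genes here. With any 1 library left out, the log2 fold change of Mybph ranged from -2.20 (without KO library 3) to -1.13 (without KO library 1).

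Mybph lies on chromosome 1 of GRCm38 from 134193448 to 134201232 on the plus strand, with 10 exons and 2320 bases in its longest annotated transcript. Tmem182 is on the same chromosome, 93.3 Mb away. The adenosine receptor gene Adora1 overlaps Mybph on the opposite strand, and no source used here states whether counting was by strand, so reads of the pair cannot be told apart with certainty. Adora1 had 22, 22 and 90 expected counts in KO libraries 1, 2 and 3 and 189, 199 and 78 in WT libraries 1, 2 and 3, at most 2.85% of the Mybph counts in the same library. Its log2 fold change was -1.76 (SE 0.60, edgeR adjusted p = 0.994), and KO library 3 lay above WT library 3. Expected counts of Mybph and Mybpc2 were not whole numbers in any of the 6 libraries, whereas those of the other 7 genes were whole. Counts that are not whole arise where reads that match more than 1 gene are shared out by estimation. In each of the 6 libraries the decimals of Mybph and Adora1 complemented each other to a whole number. In KO library 1, for example, the counts were 1413.96 and 22.04. Reads were thus shared between the pair, and the level of Adora1 is not a fully separate measurement.

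Fibre-type genes also differed in fitted mean between genotypes, although none of them passed the test: 11 of 11 slow fibre genes had a higher fitted mean in KO (median log2 fold change 1.50) and 11 of 11 fast fibre genes a lower one (median -0.27). Over all genes tested, 51.1% had a higher fitted mean in KO. The slow fibre sum of KO library 3 lay inside the WT range. Mean log2 CPM of the fast fibre genes was 12.50, 13.40 and 13.50 in KO libraries 1, 2 and 3 and 13.19, 13.52 and 13.51 in WT libraries 1, 2 and 3. KO libraries 1 and 2, with the highest slow fibre sums of all 6 (2913 and 1938 FPKM), had the lowest Mybph levels (47.31 and 70.81 FPKM), and within KO a higher slow fibre sum went with a lower Mybph level in all 3 libraries. Within WT the order was the opposite, with a higher Mybph level at each higher slow fibre sum. KO library 3 and WT library 2 both had low slow fibre sums (129.3 and 95.7 FPKM) and had 155.96 and 201.42 FPKM of Mybph, while WT library 1, with a slow fibre sum of 890.3 FPKM, had the highest Mybph level. Myh4, which encodes the IIB myosin, was at 6876, 13689 and 14156 FPKM in KO libraries 1, 2 and 3 and 11905, 11622 and 14396 FPKM in WT libraries 1, 2 and 3, so that KO libraries 2 and 3 lay inside the WT range of Myh4 and below the WT range of Mybph. In a fit that also held the slow fibre level, Mybph had a log2 fold change of -1.52 (SE 0.37, edgeR adjusted p = 0.999). KO library 1, with the lowest Mybph, also had the highest summed markers of endothelium, smooth muscle, macrophages, fibro-adipogenic cells, adipocytes, Schwann cells and red blood cells; the endothelial sum was 47.2 to 115.4 FPKM in KO and 47.9 to 85.2 FPKM in WT libraries, the macrophage sum 5.06 to 16.4 FPKM in KO and 5.18 to 7.16 FPKM in WT libraries, with 4 of 4 markers of each list having a higher fitted mean in KO and none of them at 0. KO libraries 2 and 3 did not exceed the highest WT library in either sum. The adipocyte sum was 17.6, 1.53 and 6.54 FPKM in KO libraries 1, 2 and 3 and at most 3.05 FPKM in WT libraries, so KO library 3 exceeded them too, and 3 of 3 tested adipocyte markers had a higher fitted mean in KO (median log2 fold change 1.23). The part of these cells and fibres in the Mybph difference was not tested beyond the fits given here; without KO library 1 the log2 fold change of Mybph was -1.13 (SE 0.33).

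To show the sequence next to the RNA levels, the 250 bases before the RefSeq transcription start (GRCm38.p6) are printed 5′ to 3′ for the gene that separated the genotypes (Mybph), for its fast partner Mybpc2, and for Mybpc1 and Myom3, whose levels varied most with the library besides Mybph. Capitals mark matches, on either strand, to the E-box CANNTG, the site of myogenic basic helix-loop-helix factors, and to the MCAT element CATTCC and the MEF2 consensus, which are also known from muscle promoters.

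Mybph: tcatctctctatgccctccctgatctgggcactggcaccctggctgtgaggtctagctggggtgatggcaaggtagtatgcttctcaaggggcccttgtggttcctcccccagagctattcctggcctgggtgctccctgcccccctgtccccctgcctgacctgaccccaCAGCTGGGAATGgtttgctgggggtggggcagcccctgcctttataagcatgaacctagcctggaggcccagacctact

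Mybpc2: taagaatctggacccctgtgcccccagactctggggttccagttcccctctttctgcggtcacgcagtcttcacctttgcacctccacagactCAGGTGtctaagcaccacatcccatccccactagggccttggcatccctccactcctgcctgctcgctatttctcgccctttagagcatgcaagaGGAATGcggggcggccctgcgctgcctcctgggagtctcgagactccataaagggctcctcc

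Mybpc1: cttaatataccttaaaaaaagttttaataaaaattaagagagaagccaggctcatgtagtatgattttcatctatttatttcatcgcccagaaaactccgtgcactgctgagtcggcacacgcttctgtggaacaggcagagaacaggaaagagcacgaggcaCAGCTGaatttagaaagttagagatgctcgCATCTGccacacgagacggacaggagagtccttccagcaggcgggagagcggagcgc

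Myom3: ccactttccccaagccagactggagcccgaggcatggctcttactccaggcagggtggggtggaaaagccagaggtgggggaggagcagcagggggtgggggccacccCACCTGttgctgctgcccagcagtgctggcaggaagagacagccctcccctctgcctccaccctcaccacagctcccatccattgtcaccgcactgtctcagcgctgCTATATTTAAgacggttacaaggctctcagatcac

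The windows are chr1:134193198-134193447 on the plus strand for Mybph, chr7:44524670-44524919 on the minus strand for Mybpc2, chr10:88605153-88605402 on the minus strand for Mybpc1 and chr4:135759465-135759714 on the plus strand for Myom3. Mybph had 1 E-box starting 79 bases and 1 MCAT match starting 73 bases before the start, directly adjacent without overlap, and Mybpc2 had 1 of each at 157 and 62 bases before the start. Mybpc1 had 2 E-boxes at 87 and 57 bases, and Myom3 had 1 E-box at 142 and 1 MEF2 match at 35 bases before the start. Of 32851 mouse promoter windows of this length, 66.2% held an E-box, 12.6% an MCAT match and 2.92% a MEF2 match. RefSeq windows were found for 7 of the 9 genes, all except Neb and Myom2.

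For MyBP-C, libraries differed in the share of each form, and the genotypes overlapped. Mybpc1, the slow form (minus strand of chromosome 10, 88518279 to 88605152), had levels of 731.32, 195.50 and 182.92 FPKM in KO libraries 1, 2 and 3 and 317.19, 90.80 and 206.71 FPKM in WT libraries 1, 2 and 3. One KO library was above and the other 2 were within the WT range. Its log2 fold change was 0.72 (SE 0.55; 95% interval from -0.57 to 2.003; edgeR adjusted p = 0.994), and without KO library 1 it was -0.053. Mybpc2, the fast form (minus strand of chromosome 7, 44501699 to 44524656), had levels of 926.80, 1667.77 and 1694.88 FPKM in the KO libraries and 1536.31, 1823.33 and 1833.90 FPKM in the WT libraries. KO library 1 lay below all others, and the other 2 KO libraries lay inside the WT range. The log2 fold change of Mybpc2 was -0.30 (SE 0.33; 95% interval from -1.07 to 0.46; edgeR adjusted p = 0.994), and without KO library 1 it was -0.0089.

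Summed over both forms, MyBP-C was at 1658, 1863 and 1878 FPKM in KO libraries and 1854, 1914 and 2041 FPKM in WT libraries, a 1.23-fold range over all 6. The slow form took 44.1%, 10.5% and 9.74% of that sum in KO libraries 1, 2 and 3 and 17.1%, 4.74% and 10.1% in WT libraries 1, 2 and 3, a 9.30-fold range. The narrow range of the sum holds on the FPKM scale. The TMM scaling used for the fold changes had a factor of 1.19 for KO library 1 and 0.933 to 1.04 for the others. On log2 CPM with that scaling, Mybpc2 ranged over 1.33, with KO library 1 the lowest. The log2 ratio of Mybpc1 to Mybpc2, which does not depend on how a library is scaled, averaged -2.22 ± 1.62 in KO and -3.25 ± 1.03 in WT muscle (SD, n = 3 each; two-sided exact permutation p = 0.5). The corresponding log2 ratio of Mybph to Mybpc2 averaged -4.10 ± 0.58 in KO and -2.77 ± 0.50 in WT muscle, and its groups did not overlap (exact permutation p = 0.1, the smallest possible with n = 3 each). Over the 6 ratios tested, the adjusted p was 0.5 for each. The cardiac gene Mybpc3 was listed at 0 in all 6 libraries, and Mybphl, a heart relative of Mybph, did not exceed 0.05 FPKM.

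**Figure D2:**
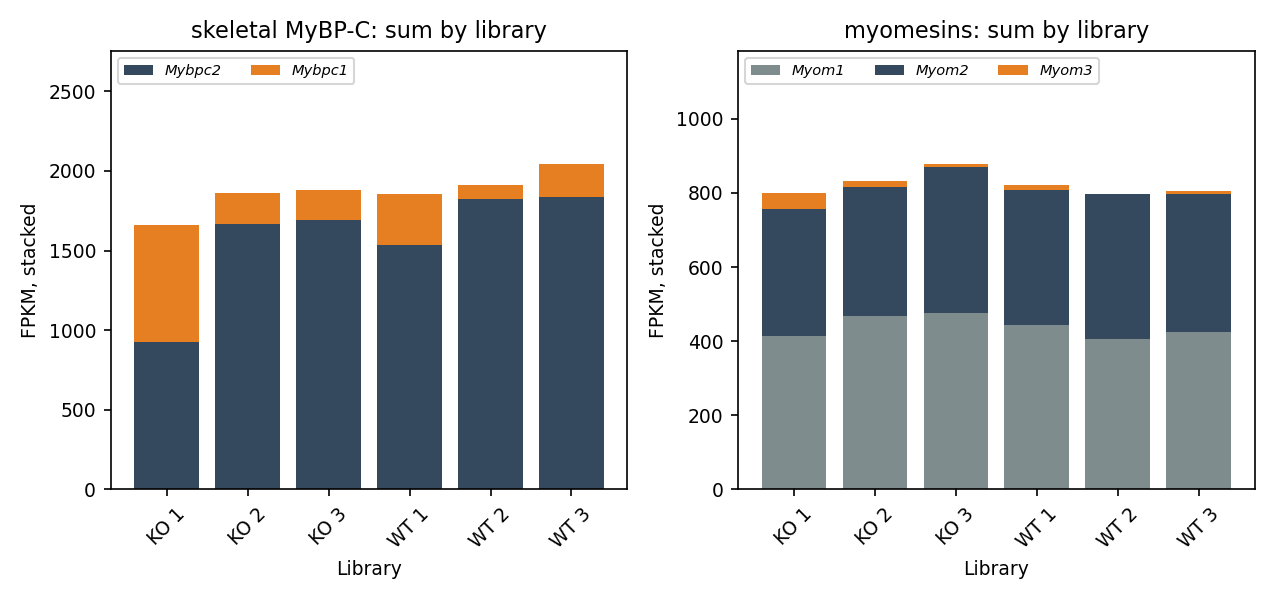
Stacked FPKM of the skeletal MyBP-C genes (left) and the myomesin genes (right) in each library, KO libraries left of WT libraries. The height of the bars spans 1.23-fold for MyBP-C and 1.10-fold for the myomesins, while the orange segments, Mybpc1 and Myom3, differ 9.30-fold and 22.1-fold as shares of their sums.

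On the FPKM scale, the myomesins of the M-band likewise had a steady total and a variable minor member. That steadiness depends on the scale. On log2 CPM with the TMM scaling used for the fold changes, Myom1 ranged over 0.52 and Myom2 over 0.54. KO library 1 was the lowest for both on that scale. Myom1, myomesin 1 (plus strand of chromosome 17, 71002633 to 71126856), had levels of 414.80, 467.15 and 474.90 FPKM in KO libraries 1, 2 and 3 and 443.55, 406.44 and 423.44 FPKM in WT libraries 1, 2 and 3. Myom2, the M-protein of fast fibres (plus strand of chromosome 8, 15057653 to 15133541), had levels of 342.36, 347.69 and 396.09 FPKM in the KO libraries and 363.06, 389.92 and 373.51 FPKM in the WT libraries. The groups overlapped for both genes. Their log2 fold changes were 0.042 for Myom1 (SE 0.18; 95% interval from -0.38 to 0.46) and -0.11 for Myom2 (SE 0.18; 95% interval from -0.52 to 0.31), with an edgeR adjusted p of 0.994 for both. Signs turned over when KO libraries were left out, at -0.028 and -0.052 for Myom1 without KO library 2 or 3, and at 0.024 for Myom2 without KO library 1. The myosin light chain gene Myl12a overlaps Myom1 on the opposite strand, with 4.86% to 9.08% of the Myom1 counts.

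Myom3, the myomesin of intermediate-speed fibres (plus strand of chromosome 4, 135759715 to 135815564), had the widest range of the 9 genes. It was at 42.14, 16.15 and 5.65 FPKM in KO libraries 1, 2 and 3 and 14.01, 1.90 and 9.48 FPKM in WT libraries 1, 2 and 3. Both KO libraries 1 and 2 lay above the WT range and KO library 3 lay inside it. The ratio of the highest to the lowest library was 7.46 within KO and 7.37 within WT, while the fitted mean of KO was 2.32-fold that of WT. Between genotypes Myom3 had a log2 fold change of 1.21 (SE 0.76; 95% interval from -0.56 to 2.98; edgeR adjusted p = 0.994), with 0.46 without KO library 1 and 0.66 in the fit that held the slow fibre level.

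All myomesins together summed to 799.3, 831.0 and 876.6 FPKM in KO libraries and 820.6, 798.3 and 806.4 FPKM in WT libraries, a 1.10-fold range. Myom3 made up 5.27%, 1.94% and 0.64% of that sum in KO libraries 1, 2 and 3 and 1.71%, 0.24% and 1.18% in WT libraries 1, 2 and 3, while Myom1 stayed between 50.9% and 56.2% in every library. The log2 ratio of Myom1 to Myom2 averaged 0.32 ± 0.09 in KO and 0.18 ± 0.11 in WT muscle (SD, n = 3 each; exact permutation p = 0.3). That of Myom3 to Myom2 averaged -4.53 ± 1.56 in KO and -5.89 ± 1.58 in WT muscle (exact permutation p = 0.4 with n = 3 each).

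Among 6127 genes with a mean of at least 5 FPKM, the log2 CPM profile nearest to Myom3 was that of Mb, myoglobin, with a mean absolute difference of 0.15 over the 6 libraries after centring each gene. Mb was at 3004, 923.6 and 414.0 FPKM in KO libraries 1, 2 and 3 and 1150, 139.9 and 830.2 FPKM in WT libraries 1, 2 and 3. Next were Ankrd2, a titin-binding ankyrin-repeat protein gene (0.16), and Lmod2, the actin-filament nucleator leiomodin 2 (0.17). Myh2, the IIA myosin heavy chain, ranked 16th with 0.37 and Mybpc1 ranked 37th with 0.51, whereas Myh7, the slow myosin, was at 1.40. The distance also grows with a difference in range, and log2 CPM ranged over 7.34 for Myh7 against 4.20 for Myom3. Myh7 and Myom3 deviated from their own means in the same direction in every library. The 3 profiles nearest to Mybpc1 were those of Ptpn3, a protein tyrosine phosphatase gene (0.14), Rcan2, a calcineurin regulator gene (0.15), and Grb14, an insulin receptor adaptor gene (0.16). Mybph had no comparably near profile: its closest were Hoxd9, Pdzd7 and Tceal7 at 0.48, 0.49 and 0.51, and Mybpc2 ranked 34th at 0.66. Myh4 ranked 98th at 0.73 and Myh7 last of the 6127 at 2.73. Hoxd9, a homeobox transcription factor gene, was at 5.67, 9.96 and 13.34 FPKM in KO libraries 1, 2 and 3 and 13.44, 15.05 and 15.54 FPKM in WT libraries 1, 2 and 3. These distances describe 6 libraries, share their scaling, are not adjusted for the range of each gene, and carry no test.

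**Figure D3:**
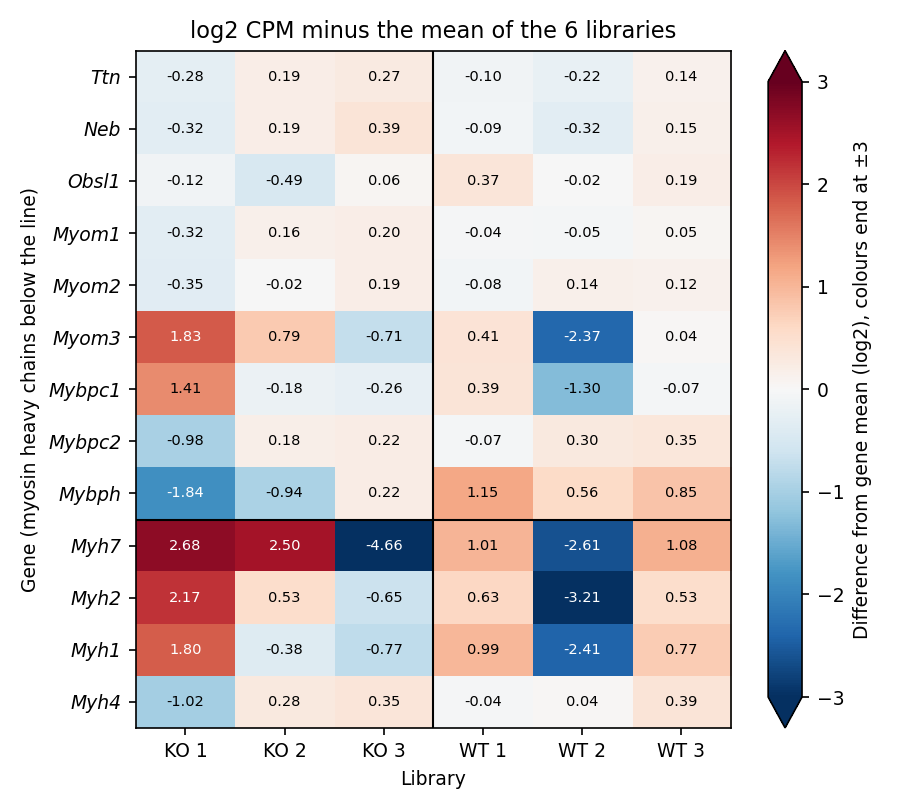
Log2 CPM of each gene minus its own mean over the 6 libraries, with KO libraries left and WT libraries right of the vertical line and 4 myosin heavy chain genes below the horizontal line. Myom3 runs from 1.83 in KO library 1 to -2.37 in WT library 2, near to Myh2, while Mybph runs from -1.84 in KO library 1 to 1.15 in WT library 1.

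For the transcripts of both giant proteins, log2 CPM ranged over 0.55 (Ttn) and 0.71 (Neb) between libraries, against 0.52 for Myom1 and 4.20 for Myom3. Ttn (minus strand of chromosome 2, 76703980 to 76982547, with 347 exons and 106824 bases in the longest annotated transcript) had levels of 191.29, 213.63 and 222.92 FPKM in KO libraries 1, 2 and 3 and 190.95, 163.34 and 202.88 FPKM in WT libraries 1, 2 and 3. Neb (minus strand of chromosome 2, 52136647 to 52378474, with 157 exons and 22489 bases) had levels of 363.01, 420.80 and 473.97 FPKM in the KO libraries and 376.57, 296.16 and 396.87 FPKM in the WT libraries. For both genes 2 KO libraries lay above all WT libraries in FPKM and KO library 1 lay inside the WT range. On log2 CPM, KO library 1 lay below the WT range for Ttn, at 13.79 against 13.85 in WT library 2. The log2 fold changes were 0.13 for Ttn (SE 0.24; 95% interval from -0.43 to 0.69) and 0.19 for Neb (SE 0.25; 95% interval from -0.38 to 0.77), and neither passed (edgeR adjusted p = 0.994 for both). The coefficient of variation of FPKM was 7.77% in KO and 10.9% in WT libraries for Ttn and 13.2% in KO and 14.9% in WT libraries for Neb.

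Ttn and Neb kept nearly the same ratio to each other in every library, at 0.53, 0.51 and 0.47 in KO libraries 1, 2 and 3 and 0.51, 0.55 and 0.51 in WT libraries 1, 2 and 3 on the FPKM scale. The log2 ratio differed by -0.061 between KO and WT means (exact permutation p = 0.5, n = 3 each). Because both transcripts are unusually long, transcript length was examined over the 12612 tested genes with an annotated length. The 329 genes with a longest transcript of at least 10000 bases had a median log2 fold change of 0.036, against 0.0046 over all genes tested, and the 2523 genes with the longest transcripts, from 5404 bases upward, had a median of 0.021.

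Obsl1, encoding obscurin-like 1, a cytoskeletal linker of the M-band that also belongs to the growth-related 3M complex, had the lowest mean level in KO muscle. It lies on chromosome 1 from 75479310 to 75506452 on the minus strand, 34.6 Mb from Tmem182. Its levels were 11.45, 7.30 and 10.44 FPKM in KO libraries 1, 2 and 3 and 14.36, 10.11 and 11.63 FPKM in WT libraries 1, 2 and 3. In FPKM only KO library 2 lay below the WT range. On log2 CPM, KO libraries 1 and 2 both lay below it, at 5.84 and 5.47 against 5.94 in WT library 2. Obsl1 had a log2 fold change of -0.36 (SE 0.16; 95% interval from -0.74 to 0.025; unadjusted p = 0.0634, edgeR adjusted p = 0.994), and one of -0.22 without KO library 2. Relative to Ttn, the log2 ratio of Obsl1 averaged -4.45 ± 0.41 in KO and -3.96 ± 0.20 in WT muscle (SD, n = 3 each; exact permutation p = 0.2). The antisense neighbour Tmem198 had at most 9 counts in any library.

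**Figure D4:**
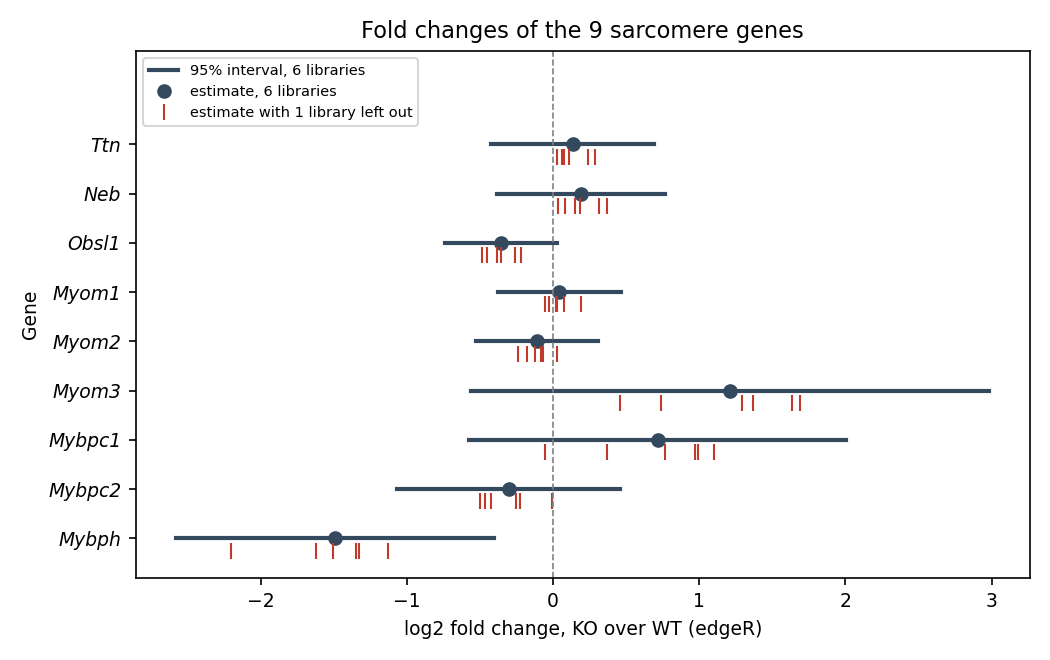
Log2 fold change of each gene, KO over WT, by edgeR from all 6 libraries (circle, with its 95% interval as a line) and with 1 library left out (red ticks). Mybph has an interval that lies below 0 (-2.58 to -0.40), and the intervals of the other 8 genes include 0.

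Across the group, the edgeR quasi-likelihood test called 0 of the 9 genes at an adjusted p of 0.05, and it called 0.00783% of all 12774 genes tested (Tmem182 alone). An unadjusted p under 0.05 was reached by 1 of the 9, Mybph, and by 3.55% of all genes. DESeq2, which called 0.047% of all genes, and both limma fits also called 0 of the 9. By DESeq2 and by limma on log2(FPKM + 1), 1 of the 9, again Mybph, was below an unadjusted p of 0.05. Of all 12774 genes, 351 by DESeq2 and 315 by this limma fit were below it. By limma-voom with quality weights, 2 of the 9, Mybph and Obsl1, were below it, and 1085 of all 12774 genes. The fitted mean was higher in KO for 5 of the 9 and for 51.1% of all genes tested. The median log2 fold change of the 9 was 0.042, against 0.0046 over all genes tested.

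The binding partners of these proteins were examined as lists, and 0 of their 46 tested entries passed the adjusted threshold by edgeR. Of 14 titin partners, 7 had a higher and 7 a lower fitted mean in KO (median log2 fold change 0.072), with 1 at an unadjusted p under 0.05. That gene was Rbm20, the splicing factor of titin, at 11.00, 9.40 and 9.85 FPKM in KO libraries 1, 2 and 3 and 11.86, 11.70 and 10.56 FPKM in WT libraries 1, 2 and 3 (log2 fold change -0.24, SE 0.095, edgeR adjusted p = 0.994). Its groups overlapped in FPKM but not in log2 CPM. The log2 fold change was 1.77 (SE 0.88) for Fhl2 and 1.25 (SE 0.68) for Fhl1, both titin-binding LIM protein genes. Fhl1 was at 809.6 FPKM in KO library 1 and between 62.3 and 220.2 FPKM in the other 5 libraries. Fhl2 had a low level, at 5.20 FPKM in KO library 1 and between 0.21 and 1.27 FPKM in the other 5 libraries.

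Of 11 tested partners of nebulin and the thin filament, 7 had a higher and 4 a lower fitted mean in KO (median 0.028), with 0 at an unadjusted p under 0.05. Those with the smallest p were Cfl2, muscle cofilin, with a log2 fold change of 0.16 (SE 0.10), Kbtbd13, a Kelch-family gene, with 0.21 (SE 0.17), and Lmod2 with 0.98 (SE 0.81). Among 10 M-band and obscurin partners, 4 had a higher and 6 a lower fitted mean in KO (median -0.030), led by Ccdc8 and Fbxw8, which encode 3M-complex partners of obscurin-like 1, at 0.49 (SE 0.40) and 0.12 (SE 0.11), and Nbr1, an autophagy receptor that binds the titin kinase, at 0.09 (SE 0.10). Ccdc8 had a low level, from 0.42 FPKM in WT library 2 to 1.50 FPKM in KO library 1. Of 11 tested thick filament genes, 6 had a higher and 5 a lower fitted mean in KO (median 0.32). That median was 0.017 without WT library 2, 0.065 without KO library 1, 0.0080 in the fit that held the slow fibre level and 0.010 by limma-voom, and reached 0.72 without KO library 3. The smallest p belonged to the chaperone gene Hsp90aa1 at 0.63 (SE 0.34) and the slow light chain genes Myl2 at 1.50 (SE 1.08) and Myl3 at 1.23 (SE 1.02). Hsp90aa1 was at 30.85 FPKM in KO library 1 and between 9.22 and 11.27 FPKM in the other 5 libraries. None of the 32 genes in these 3 lists reached an unadjusted p under 0.05 by edgeR.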

How the data were processed

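RNA-seq of gastrocnemius from 3 KO and 3 WT samples was analysed, grouped by title and genotype label. The deposited tables hold, per the file headers, a read count and an expression value for 19458 genes in each library. The counts the authors deposited are expected counts (26.2% to 27.5% not whole), and the deposited expression values are FPKM with 2 decimals. Tools named in the submitters' processing notes are RSEM 1.2.12, Bowtie2 2.2.5 and HISAT2 2.0.4, with the build GRCm38; no source used here states their roles, the annotation, read filters or strand handling.

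Counts were rounded (by at most 0.5), filtered with filterByExpr (minimum count 10, leaving 12774 genes), scaled by TMM (factors 0.933 to 1.19) and compared, two-sided, by the quasi-likelihood test of edgeR 4.0.16 in R 4.3.3, with Benjamini-Hochberg adjustment over all genes and a threshold of 0.05. SE is the absolute log2 fold change over the square root of F. Log2 CPM used a prior count of 2. Ratios used FPKM without a pseudocount. Results were recomputed with a replicate block, without each library, other filters and size factors, DESeq2 1.42.0, limma 3.58.1 on log2(FPKM + 1) and with voom quality weights, the slow fibre level as covariate, and an adjusted p of 0.10. The edgeR script was tested on simulated data. No pair of libraries agreed within counting noise (chi-square per degree of freedom at least 12.9).

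The 9 genes and the lists were chosen with earlier results of these data known. Named were the 9 genes, Tmem182, up to 3 genes per partner list with the smallest p, 4 myosin heavy chains, and the 3 nearest profiles of the 3 widest-ranging genes; overlapping genes, relatives and fibre or cell markers were named besides. Gene positions are from GENCODE M21 on GRCm38 and promoters from RefSeq on GRCm38.p6.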

Additional observations from a re-analysis of the deposited data

How the results depend on the processing

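No member of the 9 passed the threshold in the fits with all 6 libraries, with 1 library left out, or at an adjusted p of 0.10 (0 of 9 in each). Over all genes, edgeR called 1 gene and DESeq2 6; with 1 library left out edgeR called 0 to 1, and the count of 0 came without KO library 2 (383 genes at an unadjusted p under 0.05) and without WT library 3 (316). Of the fold changes of the 9 genes, 3 turned sign, each with a library left out: Mybpc1 ranged from -0.053 to 1.10, Myom1 from -0.052 to 0.19 and Myom2 from -0.24 to 0.024. The fold changes of the other 6 genes and the 6 ratios kept their direction in all settings run. The fold changes of Mybph ranged from -1.70 to -1.49 over settings with all libraries (lowest adjusted p 0.499, by limma-voom with quality weights). That fit gave 0.025 for Mybpc1 and 0.60 for Myom3; the causes were not tested. No label says that replicate numbers pair the libraries. Deviations of same-numbered libraries correlated at 0.52, 0.18 and -0.12 across genes, and those of differently numbered libraries at -0.47 to 0.43. The highest value belonged to KO library 1 with WT library 1. So few pairs cannot settle whether the libraries were paired. The edgeR fit with the replicate block called 1 gene and 0 of the 9, with Mybph at -1.70 (adjusted p = 0.845). In that fit 3 of the 9, Mybpc1, Mybph and Obsl1, had an unadjusted p under 0.05, as did 743 of all 12774 genes tested. The number of libraries, 3 per group, limits the precision most for Myom3 and Mybpc1, whose fold changes had SEs of 0.76 and 0.55. The median of the 9 genes was -0.028 without KO library 2 and -0.052 without KO library 3, and between 0.023 and 0.090 in the other settings; that of the M-band partners also changed sign between settings (-0.049 to 0.054), and that of the titin partners was -0.0048 by limma-voom.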

Other observations

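The abundance-weighted transcript length of each gene, read from the ratio of expected count to FPKM, differed little between libraries. Libraries were scaled by the 5456 tested genes at 5 FPKM or more in every library, the genes given here among them. It ranged over 0.03 percentage points of its own mean for Myom2, 0.53 for Myom1, 1.04 for Neb, 1.12 for Ttn and 3.94 for Obsl1. For Ttn it was 100.3%, 100.5% and 100.5% of the mean in KO libraries 1, 2 and 3 and 100.1%, 99.3% and 99.4% in WT libraries 1, 2 and 3. Myom3 was below 5 FPKM in 1 library and was left out. This ratio shows only shifts between isoforms of different length that the authors' annotation holds.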
